A study of Mus musculus with 1 sample.

Results

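F13a1, Fn1, Wfdc17, Trem2, Ly86, Ms4a6c, Mpeg1 and Tgfbi encode proteins of monocytes and macrophages, several of them secreted or at the cell surface. These 8 genes, of 25661 in the count table, were chosen by name because earlier results of the same data had shown them high in monocytes, so their levels are described here without a test. The table is 1 library of mouse bone marrow cells whose 10528 usable cells carried 1 of 5 barcoded hashtags, A961 to A965. Per the labels, the sorted populations were cKit+Lin- progenitors and GMP-MoPs from a naive and from an LPS-injected mouse, and cMoPs from a naive mouse, and the 5 suspensions were loaded as 15000 cells for A965 and A963 and 100 cells for A964, A962 and A961. The labels do not say which hashtag is which population or which mouse, and they give no strain, age, dose or time. All 5 suspensions shared the tissue, the capture and the library, and each treatment was represented by a single animal.

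Monocytes arise in bone marrow from granulocyte-monocyte progenitors (GMPs) by way of committed progenitors such as the cMoP, the common monocyte progenitor. Mpo, the granule enzyme myeloperoxidase, is abundant in the progenitors and is lost as monocytes mature, and this loss was used to order the cells. Among the 8 genes, F13a1 (the A chain of clotting factor XIII, which cross-links fibrin), Fn1 (fibronectin) and Tgfbi (a secreted protein that binds collagen and integrins) act in clots and extracellular matrix, Wfdc17 is a small secreted protein of the WAP (whey acidic protein) family, Trem2 is a lipid-sensing receptor that signals through the adaptor Tyrobp, Ly86 (MD-1) is the partner of the toll-like receptor homologue Cd180, Ms4a6c is a membrane protein of the Ms4a family, and Mpeg1 (perforin-2) is a pore-forming protein that acts against engulfed bacteria.

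All 8 genes are protein coding. On GRCm38 (GENCODE M21), F13a1 lies on chr13:36867178-37050244 on the minus strand and Ly86 on chr13:37345208-37419036 on the plus strand, so that their starts are 295 kb apart, point away from each other and have no protein-coding gene between them. Tgfbi lies on the same chromosome at chr13:56609523-56639562 (plus), Fn1 at chr1:71585520-71653200 (minus), Wfdc17 at chr11:83703991-83706268 (plus) and Trem2 at chr17:48346401-48354147 (plus). Ms4a6c (chr19:11469366-11482192, plus) and Mpeg1 (chr19:12460779-12465283, plus) share a chromosome. Ms4a6c has the close relatives Ms4a6b and Ms4a6d, and how reads shared between them were counted is not given in the sources used here, so its level is less certain than the others.

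Levels are in counts-per-million (CPM), from the counts of a gene summed over the cells of a group and the summed counts of all genes in them. Bounds given as intervals are exact at 95% and hold only the error of counting, since no group had a replicate. Cells were clustered without the 8 genes, and clusters were named from other markers. This gave 11 named classes, among them 1515 monocyte-like cells in clusters 1 (922 cells) and 7 (593 cells). The hashtags held 5567 cells (A965), 73 (A964), 4716 (A963), 104 (A962) and 68 (A961), with median counts per cell between 20430.5 and 27801. A962 thus held more cells than the 100 loaded per the labels. Whether some cells were given the hashtag of another suspension was not tested. Xist was at 11.8 CPM in A965 and 59.7 CPM in A964, against 611, 409 and 486 CPM in A963, A962 and A961. Summed over 4 Y-linked genes, the level was 79.5 CPM in A965 and 86.0 CPM in A964, against 6.46, 21.0 and 39.2 CPM in A963, A962 and A961, so animals of different sex contributed to A965 and A963, and A962 and A961 carried counts of both kinds. Kit, the marker named in the sort, was at 1.499 CPM in monocyte-like cells, 23.6 CPM in GMP-like cells and 94.6 CPM in stem-like cells.

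Every one of the 8 genes was higher in monocyte-like than in GMP-like cells, by between 2.17-fold (Ly86) and 30.6-fold (Fn1). A gene was called higher when it passed 1.5-fold with 10 CPM added to both sides, among genes reaching 10 CPM in either group. Of the 8193 genes that reached it, 10.3% were called higher in monocyte-like cells. The 8 were picked for this pattern, so nothing is read from their count. They differed in their level in the progenitors.

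**Figure D1:**
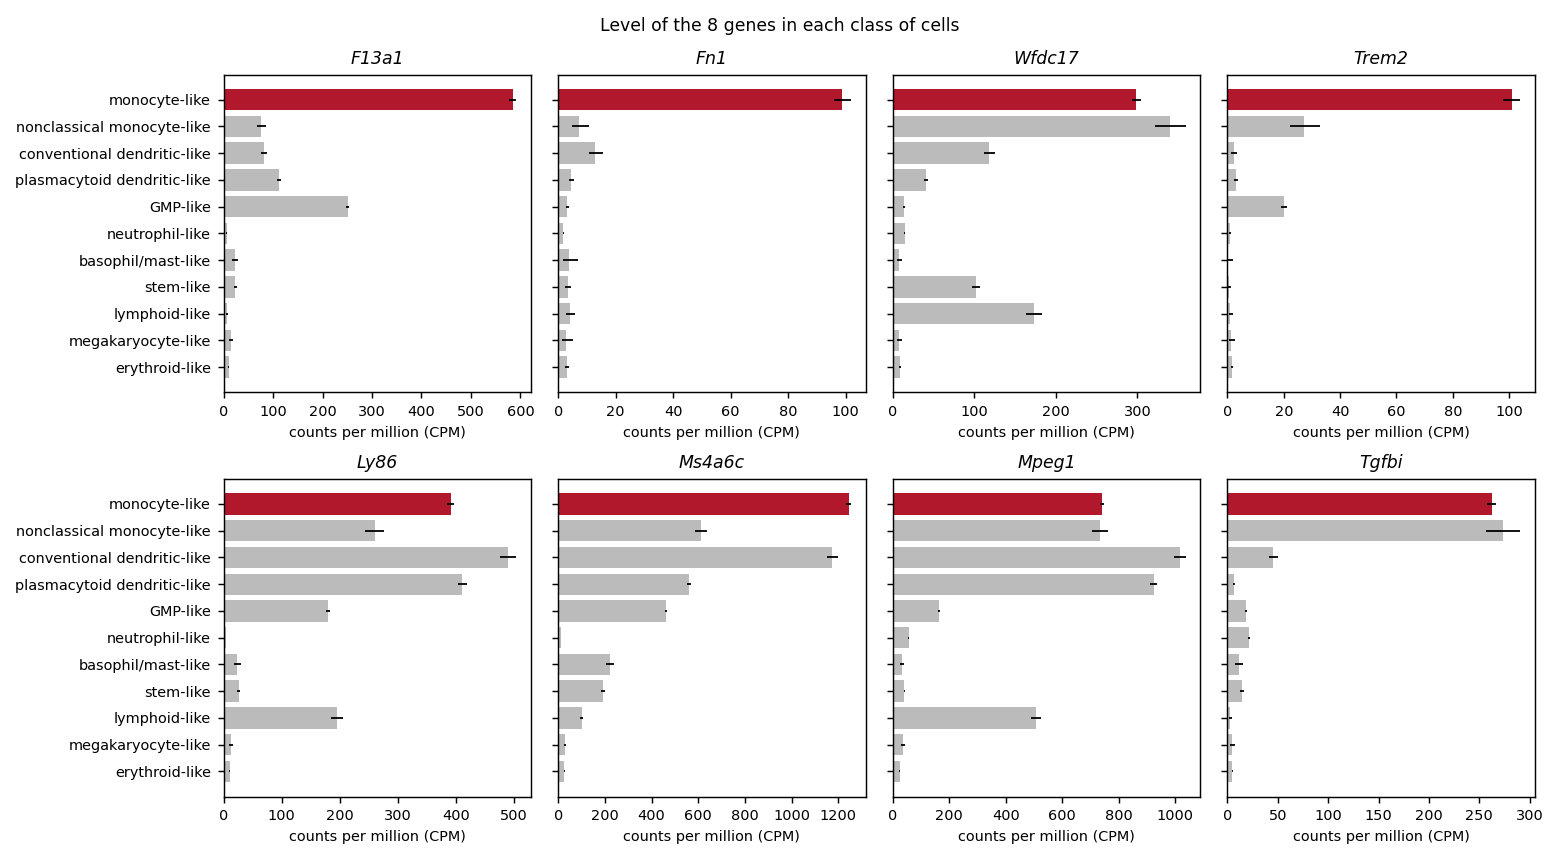
Level of each gene (x axis, CPM) in the 11 named classes of cells, monocyte-like in red at the top, with exact 95% counting intervals. F13a1, Fn1 and Trem2 are at least 2.33-fold above their second class in monocyte-like cells, while Ly86, Ms4a6c and Mpeg1 are as high or nearly as high in dendritic-like cells.

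F13a1 was at 585 CPM in monocyte-like cells (interval 578 to 592) and at 251 CPM in GMP-like cells, which was its second class. Every other class was at or below 112 CPM, and neutrophil-like cells were at 6.21 CPM. Of all F13a1 counts, 52.8% came from monocyte-like and 36.5% from GMP-like cells.

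Fn1 was at 98.9 CPM in monocyte-like cells (interval 96.0 to 102), and 83.6% of all its counts came from them. Conventional dendritic-like cells followed at 12.97 CPM. GMP-like cells were at 3.24 CPM, near background, next to 3.06 CPM in erythroid-like cells, which should lack the gene. The GMP-like level was uneven, at 4.16 CPM in cluster 0 (interval 3.58 to 4.81) and 1.76 CPM in cluster 5 (1.30 to 2.33).

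Trem2 was at 101 CPM in monocyte-like cells, against 27.2 CPM in nonclassical monocyte-like, 19.9 CPM in GMP-like and 1.58 CPM in erythroid-like cells. No class other than these monocyte-like and GMP-like ones reached 3 CPM. The same receptor family gave another order for Trem3, which was lower in monocyte-like cells (82.9 CPM) than in GMP-like cells (186 CPM).

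Ms4a6c was highest in monocyte-like cells at 1244 CPM, only 1.06-fold above conventional dendritic-like cells (1174 CPM), though their counting intervals (1233 to 1254 and 1153 to 1196) did not meet. GMP-like cells were at 463 CPM, plasmacytoid dendritic-like cells at 560 CPM and stem-like cells at 192 CPM. Neutrophil-like cells had 11.5 CPM, below the 25.4 CPM of erythroid-like cells.

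Ly86 and Mpeg1 were highest in dendritic-like cells. Ly86 was at 391 CPM in monocyte-like cells, against 490 CPM in conventional and 411 CPM in plasmacytoid dendritic-like cells, and Mpeg1 was at 740 CPM against 1016 and 923 CPM. By cluster, Mpeg1 was uneven, at 1157 CPM in monocyte-like cluster 7 and 578 CPM in monocyte-like cluster 1. Within the plasmacytoid dendritic-like class it was at 1829, 669 and 270 CPM in clusters 12, 10 and 20. Ly86 and Mpeg1 were also present in lymphoid-like cells, at 196 CPM and 507 CPM. Neutrophil-like cells separated them: Ly86 was at 3.80 CPM there, below erythroid-like cells (10.7 CPM), and Mpeg1 was at 57.2 CPM, above them (24.1 CPM).

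Summed over the hashtags, Wfdc17 and Tgfbi were highest in the nonclassical monocyte-like class, a group of 195 cells in clusters 18 and 21 that also carried the macrophage genes C1qa (287 CPM) and C1qb (256 CPM). Genes of progenitors were high too, so the name may not hold for all its cells. Against 627 and 127 CPM in monocyte-like cells, Mpo was at 892 CPM and Ms4a3 at 327 CPM in this class. Wfdc17 was at 299 CPM in monocyte-like cells, against 340 CPM in this class, and Tgfbi at 262 CPM against 273 CPM, with intervals that overlapped for Tgfbi only. Of the 195 cells, 149 came from A965, and the order differed between hashtags. Within A965, Wfdc17 was at 411 CPM in monocyte-like cells (interval 403 to 419), against 369 CPM in the nonclassical class (347 to 393), and within A963 at 97.1 against 248 CPM. Tgfbi was at 303 against 311 CPM in A965 and 190 against 155 CPM in A963. Neither class was uniform. By cluster, Wfdc17 was highest in monocyte-like cluster 7, at 866 CPM, where Tgfbi was at 517 CPM. Nonclassical cluster 18, with 135 cells, had 697 CPM of Wfdc17 and 527 CPM of Tgfbi, while cluster 21, with 60 cells, had 67.1 and 79.2 CPM. Outside the myeloid classes the 2 genes differed: Wfdc17 was at 173 CPM in lymphoid-like and 102 CPM in stem-like cells, where Tgfbi was at 2.95 and 14.0 CPM, and Wfdc17 was at 13.8 CPM in GMP-like cells, near the 9.18 CPM of erythroid-like cells.

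Counted by class, 4 of the 8 genes (F13a1, Fn1, Trem2 and Ms4a6c) had their highest level in monocyte-like cells, as had 4.98% of the 10640 genes that reached 10 CPM in a class. The count was between 4 and 6 under every alternative tried.

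After each cell was thinned to 8800 counts, so that depth no longer set detection, Ms4a6c was found in 99.6% of monocyte-like cells, Mpeg1 in 97.8%, F13a1 in 93.4% and Ly86 in 88.9%. Tgfbi was found in 77.4%, Wfdc17 in 59.4%, Trem2 in 42.8% and Fn1 in 36.2%. The corresponding shares of erythroid-like cells, a class that should lack these genes, lay between 0.81% (Trem2) and 9.45% (Mpeg1). Before thinning, Fn1 was found in 50.6% and F13a1 in 96.7% of monocyte-like cells. Median counts per cell before thinning were 25763 in monocyte-like and 43228 in erythroid-like cells.

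A monocyte-like cell held a median of 6 of the 8 genes, a GMP-like cell 3 and an erythroid-like cell 0. At least 5 were found together in 1352 of 1515 monocyte-like cells (89.2%, exact binomial interval 87.6 to 90.8%). The nonclassical monocyte-like class came next, with 85 of 195 cells (43.6%, interval 36.5 to 50.9%) and a median of 4 genes. The share was 17.2% in GMP-like, 19.3% in conventional dendritic-like and 0.945% in erythroid-like cells. All 8 were found in 114 monocyte-like cells, and a single monocyte-like cell had none.

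**Figure D2:**
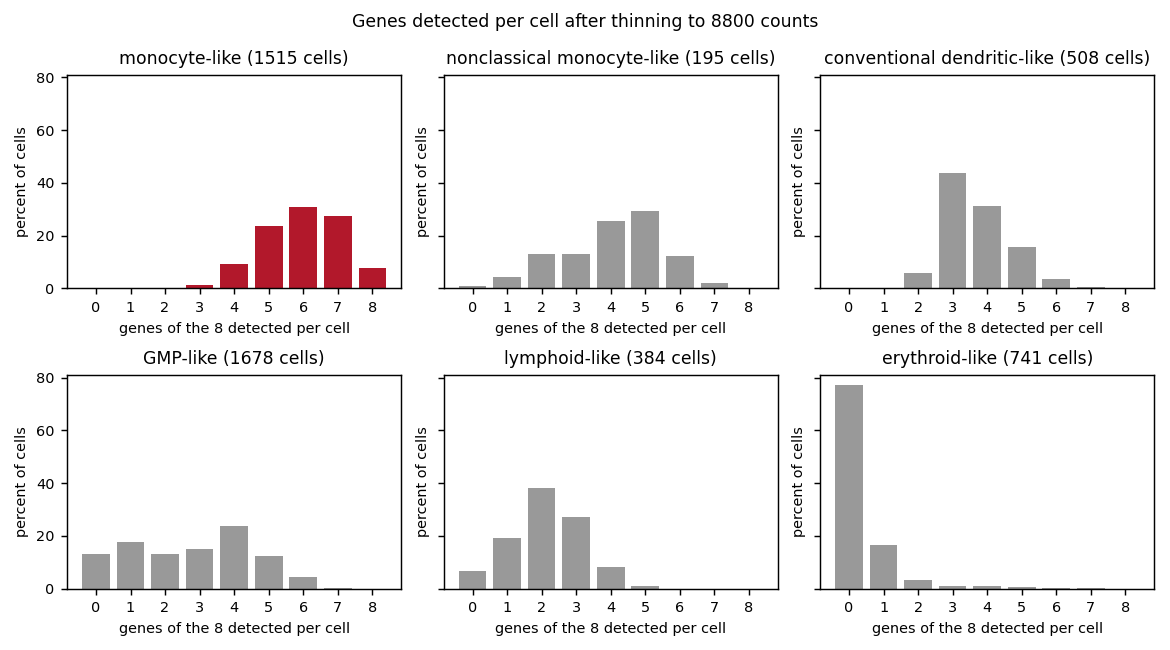
Percent of cells (y axis) by the number of the 8 genes found in a cell (x axis) after thinning to 8800 counts, for 6 classes. The median is 6 genes in monocyte-like, 4 in nonclassical monocyte-like, 3 in GMP-like and 0 in erythroid-like cells. GMP-like cells have separate peaks at 1 gene (297 cells) and 4 genes (397 cells).

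Within the monocyte-like class, the cells were ordered in 4 equal parts by Mpo, of 378 or 379 cells each. Mpo itself was at 1563, 376, 79.7 and 0.981 CPM from the highest to the lowest part. Wfdc17, Fn1, Tgfbi and Mpeg1 climbed as Mpo declined, and the other 4 genes moved by less than 1.5-fold.

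Wfdc17 was at 65.2, 152, 411 and 861 CPM from the highest to the lowest Mpo part. Fn1 was at 24.4, 56.1, 144 and 258 CPM. Tgfbi was at 136, 197, 343 and 511 CPM, and Mpeg1 at 528, 636, 856 and 1179 CPM. Each of these 4 genes was higher in every step than in the one before.

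F13a1 was level, at 603, 580, 575 and 570 CPM, and Ly86 nearly so, at 383, 388, 369 and 444 CPM. Trem2 was at 112, 102, 92.6 and 89.3 CPM, lower at each step. Ms4a6c was at 1076, 1205, 1316 and 1540 CPM, a climb of less than 1.5-fold. Cells with less Mpo were also shallower, with a median of 33882 counts per cell in the highest and 16651 in the lowest Mpo part. Shares of thinned cells, which do not depend on depth, followed the same course: Wfdc17 was found in 26.9, 46.3, 76.0 and 88.4% of cells and F13a1 in 96.6, 96.0, 91.3 and 89.7%.

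The same was described with both ordering genes. Later cells had Mpo at or below its median of 165 CPM and Fn1 above its median of 17.9 CPM (493 cells), and early cells the reverse (493 cells). Since 748 of the 1515 cells had no Fn1 count and 171 had 1, the Fn1 median separates cells with a count from cells without, and 199 cells lay within 1.5-fold of the Mpo median. The cells nearest to the Fn1 boundary were at 18.02 CPM above it and 17.86 CPM below it. Fn1 differed by construction and was at 299 CPM in later and 0.503 CPM in early cells.

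Wfdc17 was 8.58-fold higher in later cells (682 against 79.5 CPM, interval of the ratio 8.11 to 9.09), Tgfbi 3.15-fold (461 against 146 CPM, 3.0 to 3.30) and Mpeg1 2.04-fold (1089 against 535 CPM, 1.98 to 2.09). These intervals hold counting error only, and the size of the ratios depended on the processing. Over the alternatives tried, the log2 ratio of Wfdc17 lay between 0.818 and 4.265. At clustering resolution 0.5, Tgfbi (log2 0.50) and Mpeg1 (log2 0.57) did not pass 1.5-fold. Of the 7948 genes tested, 6.92% were called higher and 5.05% lower. Among the 8, Wfdc17, Tgfbi and Mpeg1 were called higher and none lower, and the call of Fn1 was fixed by the cut. The others did not pass 1.5-fold: Ms4a6c was at 1492 against 1104 CPM, F13a1 at 622 against 558 CPM, Ly86 at 394 against 377 CPM and Trem2 at 86.4 against 105 CPM. Read together with the class levels, Wfdc17, Fn1 and Tgfbi were low in GMP-like cells and climbed late, while in GMP-like cells F13a1 was at 42.8%, Ms4a6c at 37.2% and Ly86 at 36.7% of the level in its highest class. Trem2 was at 19.8% and Mpeg1 at 16.2% of it. The GMP-like class was uneven: F13a1 was at 373, Ms4a6c at 726 and Ly86 at 286 CPM in its cluster 0 (1018 cells), against 54.9, 40.4 and 10.4 CPM in its cluster 5 (660 cells).

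The remaining cells were on the same side of both medians. Cells low in both Mpo and Fn1 (265 cells) had 488 CPM of F13a1, below the later and the early cells, and cells high in both (264 cells) had 663 CPM, above them. Wfdc17 followed Mpo instead, at 445 CPM in cells low in both and 160 CPM in cells high in both. Across the 1515 thinned cells, the Spearman correlation with Mpo was -0.55 for Wfdc17, -0.42 for Mpeg1, -0.41 for Tgfbi, -0.34 for Fn1 and between -0.22 and 0.08 for the other genes. All points come from 1 library, and these values describe sparse counts. Among Wfdc17, Tgfbi and Mpeg1 the pairwise values were 0.41 to 0.50 over all these cells, 0.45 to 0.55 in A965 and 0.25 to 0.31 in A963.

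**Figure D3:**
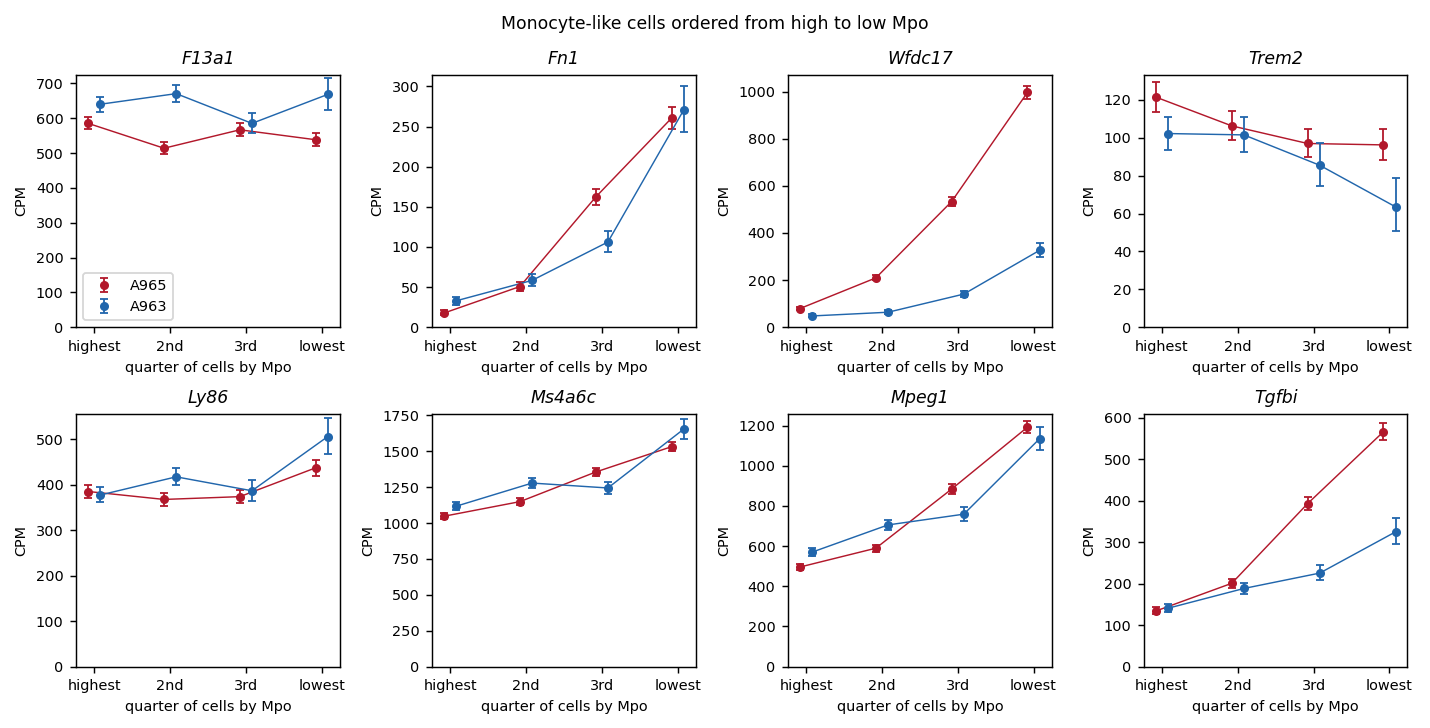
Level of each gene (y axis, CPM) in monocyte-like cells cut into 4 parts from high to low Mpo (x axis), in A965 (red) and A963 (blue), with exact 95% counting intervals. Wfdc17, Fn1, Mpeg1 and Tgfbi climb in both hashtags, F13a1 stays level in both, and Wfdc17 is higher in A965 in all 4 parts.

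The order held within each of the large hashtags. In A965 (369 later, 250 early cells) Wfdc17 was 8.58-fold, Tgfbi 3.65-fold and Mpeg1 2.32-fold higher in later cells, with 8.35% of all tested genes called higher and 7.41% lower. In A963 (98 later, 205 early cells) the ratios were 4.33, 1.82 and 1.57, with 4.26% called higher and 2.83% lower. F13a1, Ly86, Ms4a6c and Trem2 passed 1.5-fold between later and early cells in neither. By Mpo part, Trem2 was at 102 CPM in the highest and 63.6 CPM in the lowest part of A963. In A965 it was at 121 and 96.3 CPM in these parts. The difference between the hashtags was not tested.

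Wfdc17, Tgfbi and Mpeg1, which climbed with the loss of Mpo, are shown with the 250 bases before their RefSeq start (GRCm38.p6), beside F13a1 and Trem2, which did not climb. The table matched 7 of the 8 genes, all but Fn1. It gives F13a1 a pair of starts, and the stretch shown is before the one at position 37050244. Capitals mark matches, on either strand, of the letters GAGGAA (PU.1), CGGAAG (ETS), TTGCNNAA (C/EBP), or of the IRF motif (GAAA, any 2 bases, GAAA), or of the letters TGCTGAC (MAF), CCACCC (Klf) or TGANTCA (AP-1), and no 2 matches in these stretches overlap.
Wfdc17, chr11:83703806-83704055, plus strand: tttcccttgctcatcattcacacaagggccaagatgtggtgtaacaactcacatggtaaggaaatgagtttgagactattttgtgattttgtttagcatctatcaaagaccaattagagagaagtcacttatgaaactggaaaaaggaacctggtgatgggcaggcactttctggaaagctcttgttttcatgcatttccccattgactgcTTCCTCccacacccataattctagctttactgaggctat
Tgfbi, chr13:56609336-56609585, plus strand: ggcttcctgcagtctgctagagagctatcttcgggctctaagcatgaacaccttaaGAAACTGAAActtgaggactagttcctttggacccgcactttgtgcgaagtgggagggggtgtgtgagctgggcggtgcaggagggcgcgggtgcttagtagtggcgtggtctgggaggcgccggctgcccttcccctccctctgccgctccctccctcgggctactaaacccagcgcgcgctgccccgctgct
Mpeg1, chr19:12460520-12460769, plus strand: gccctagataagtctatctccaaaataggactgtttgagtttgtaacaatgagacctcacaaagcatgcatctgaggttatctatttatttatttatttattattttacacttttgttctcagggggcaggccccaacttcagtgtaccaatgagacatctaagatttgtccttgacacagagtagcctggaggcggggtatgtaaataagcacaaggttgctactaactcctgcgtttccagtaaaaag
F13a1, chr13:37050245-37050494, minus strand: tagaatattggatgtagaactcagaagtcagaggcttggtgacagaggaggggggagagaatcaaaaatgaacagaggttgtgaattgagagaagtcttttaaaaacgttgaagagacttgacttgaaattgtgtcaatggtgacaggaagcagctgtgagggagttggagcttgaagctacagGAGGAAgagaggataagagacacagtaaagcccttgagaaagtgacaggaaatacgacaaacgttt
Trem2, chr17:48346151-48346400, plus strand: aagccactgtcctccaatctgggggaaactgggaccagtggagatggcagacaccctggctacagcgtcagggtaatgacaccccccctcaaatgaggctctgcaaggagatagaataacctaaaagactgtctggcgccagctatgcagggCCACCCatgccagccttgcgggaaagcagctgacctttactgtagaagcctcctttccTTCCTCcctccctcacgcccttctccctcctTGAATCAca

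The letters of PU.1, the transcription factor that specifies the myeloid lineage, were found within the 300-base windows (250 before and 50 after the start) of F13a1, Trem2 and Wfdc17, and in 28.3% of all 32851 windows of that length. The IRF letters were found in the Tgfbi window and in 3.44% of all windows, the Klf letters in that of Trem2, in that of the F13a1 start at position 37049213, which is not shown, and in 31.5% of all, the C/EBP letters in that of Trem2 and in 10.8% of all, and the AP-1 letters in that of Trem2 and in 7.81% of all. The ETS and MAF letters were found in none of the 8 windows of these 7 genes, and in 16.9% and 4.67% of all. None of the 7 motifs was in the windows of Mpeg1, Ly86 or Ms4a6c. No motif of the 7 was found in more than 1 of the windows of Wfdc17, Tgfbi and Mpeg1.

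Other genes of the same families and pathways are given from lists made by function. Of all tested genes, 6.92% were called higher in later cells and 5.05% lower, as above. In the Ms4a family, 5 of 7 tested genes were called higher and 1 lower, with a median log2 ratio of 1.31 against -0.05 over all tested genes. Ms4a4c was at 398 against 101 CPM, Ms4a6b at 263 against 111 CPM and Ms4a6d at 138 against 49.7 CPM, while Ms4a3, a gene of granulocyte-monocyte progenitors, was at 32.4 against 211 CPM. The ratio of Ms4a6c was 1.35, against 3.94, 2.36 and 2.78 for these 3 relatives that were higher.

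Of 8 tested Trem receptors and partners, 1 was called higher and none lower (median log2 0.22). It was Tyrobp, the adaptor of Trem2, at 2582 against 1552 CPM in later and early cells, where Trem2 itself was at 86.4 against 105 CPM. Among toll-like receptors and the partners of MD-1, 5 of 9 were called higher and none lower (median log2 0.76). Cd180, which pairs with Ly86, was at 47.0 against 23.6 CPM, and Tlr13 at 49.1 against 11.2 CPM, while Ly86 was at 394 against 377 CPM.

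Integrins, which include receptors for fibronectin, had 3 of 7 genes called higher and none lower (median log2 0.44), beside 6.92% and 5.05% of all tested genes. Itgam was at 209 against 42.5 CPM, Itgb2 at 205 against 74.6 CPM and Itga4, a chain of a fibronectin receptor, at 114 against 65.6 CPM. Of 5 tested clotting genes 2 were called higher, F5 at 26.3 against 10.2 CPM and Serpinb10 at 73.1 against 42.8 CPM, and F10 was at 214 against 148 CPM without passing. Of 8 matrix and TGF-beta genes 3 were called higher, among them the proteoglycan Vcan at 89.0 against 1.96 CPM and the galectin Lgals3 at 2273 against 915 CPM.

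Of 2 tested WAP proteins 1 was called higher, Wfdc21 at 177 against 107 CPM, and Slpi was at 432 against 623 CPM. The other pore-forming proteins of the Mpeg1 type did not reach 10 CPM in either group, so that none was tested. Among 9 monocyte regulators 2 were called higher (Nr4a1 and Irf5) and 1 lower, Irf8 at 379 against 652 CPM. PU.1 itself (Spi1) was at 468 against 397 CPM and Klf4 at 123 against 145 CPM, neither past 1.5-fold. In the list of classical monocyte genes, 12 of 16 were called higher and none lower (median log2 1.29). Lyz2 was at 18329 against 5593 CPM and S100a4 at 2196 against 560 CPM, while Ly6c2 was at 5980 against 8029 CPM.

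Across the 23 clusters, the genes most like each of the 8 were found by Pearson's r of log2(CPM + 10), among 2700 genes that reached 100 CPM in a cluster. These values describe clusters of 1 library. Ly86 was most like Ifi209 (0.98), Tpm4 (0.96) and Tifab (0.96), and Ms4a6c was most like Rassf4 (0.96), Ifi209 (0.96) and Tifab (0.95). Mpeg1 was most like Ifnar2, Pld4 and Trex1 (0.94 to 0.95), and Tgfbi like Lrrc25, Cd302 and Ifi204 (0.93 to 0.95). Trem2 was most like Ms4a6d (0.94), Ctsc (0.90) and Clec7a (0.90), and Fn1 like Hopx, Ms4a6d and Mcub (0.87 to 0.88). F13a1 followed Mrpl33 (0.93), C1galt1c1 (0.89) and Glipr1 (0.82). Wfdc17 had the weakest best match of the 8, Zbp1 at 0.86, followed by Fam234a and Susd3. Among the 8 themselves, Ly86 was closest to Mpeg1 (0.93) and Ms4a6c (0.93), and Ly86 and Tgfbi were farthest apart (0.40).

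Monocyte-like cells were 902 of 5567 cells in A965, 42 of 73 in A964, 507 of 4716 in A963, 20 of 104 in A962 and 44 of 68 in A961, and A962 also held 39 GMP-like cells. Over all cells of a hashtag, F13a1 was at 157 CPM in A965, 334 in A964, 155 in A963, 347 in A962 and 477 in A961. Trem2 ran from 16.9 CPM in A963 to 69.7 CPM in A961. In a sum over cells, more cells of a type and more RNA of the gene per cell cannot be told apart, so the values within monocyte-like cells follow.

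Wfdc17 gave the widest split between hashtags. Within monocyte-like cells it was at 411 CPM in A965 (interval 403 to 419) and 354 CPM in A964, against 97.1 CPM in A963, 107 CPM in A962 and 112 CPM in A961. A965 and A964 lay above the other 3 with no overlap of their intervals, and they also had the least Xist, but A962 and A961 carried Y-linked counts too. The hashtags also differed in their share of cluster 7, where Wfdc17 was at 866 CPM and Tgfbi at 517 CPM, against 77.4 and 163 CPM in cluster 1. Cluster 7 held 506 of 902 monocyte-like cells in A965 and 20 of 42 in A964. It held 58 of 507 in A963, 7 of 20 in A962 and 2 of 44 in A961. Only A965 and A963 are compared at like Mpo below. Sex, animal, any sort or treatment difference and, for the small hashtags, place in the Mpo order cannot be told apart.

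Tgfbi gave a smaller split, at 303 CPM in A965, 261 CPM in A964, 190 CPM in A963, 228 CPM in A962 and 182 CPM in A961, and the intervals of A964 and A962 overlapped. F13a1 ran the other way, at 552 CPM in A965 and 507 CPM in A964 against 642 CPM in A963, 772 CPM in A962 and 657 CPM in A961, again with no overlap of intervals between these sides. For Fn1, Trem2, Ly86, Ms4a6c and Mpeg1 the hashtags did not divide in this way. Fn1 ranged from 73.7 CPM (A964) to 111 CPM (A965), Trem2 from 65.6 CPM (A962) to 106 CPM (A965) and Ly86 from 268 CPM (A964) to 470 CPM (A961). Ms4a6c ranged from 1037 CPM (A964) to 1322 CPM (A961) and Mpeg1 from 704 CPM (A963) to 800 CPM (A962). The 3 small hashtags rest on 20 to 44 monocyte-like cells each. Whether all these cells carry the hashtag of their own suspension was not tested, and A962 held more cells than were loaded.

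**Figure D4:**
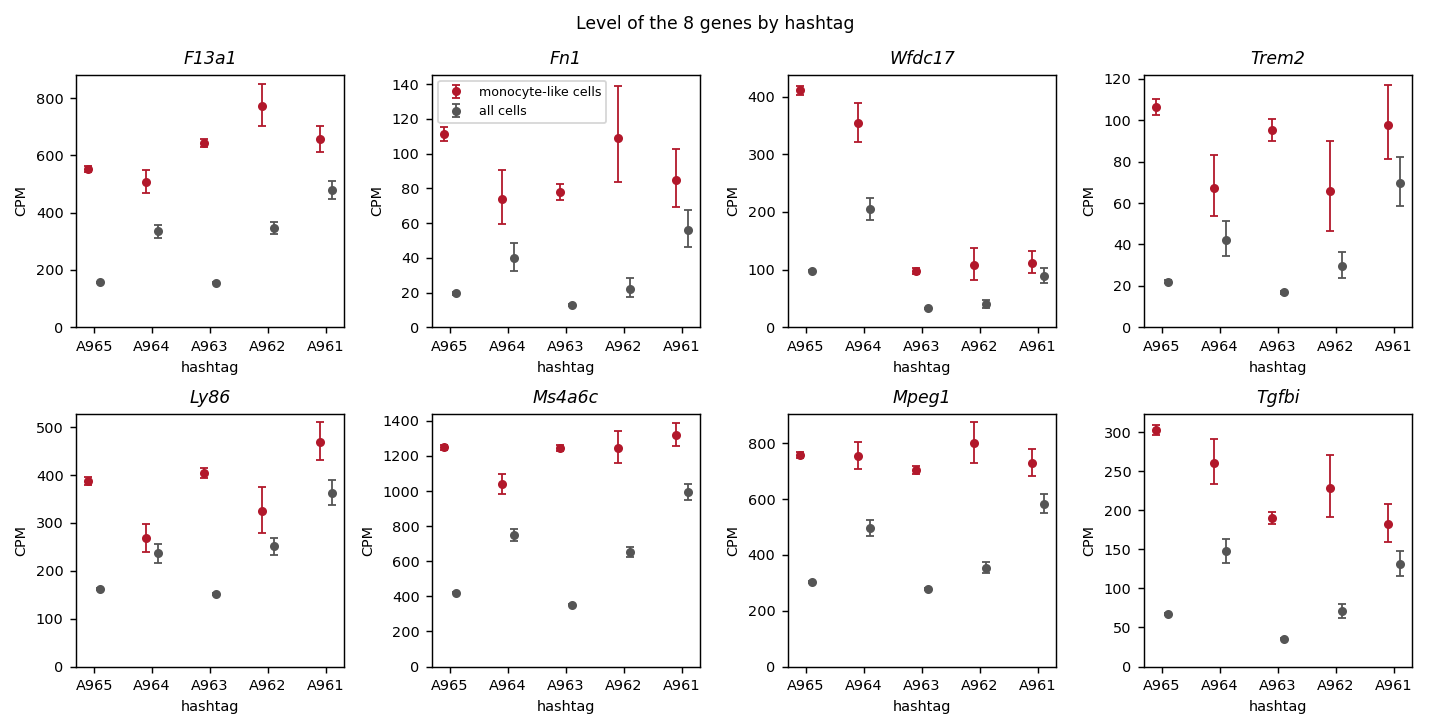
Level of each gene (y axis, CPM) by hashtag (x axis) in monocyte-like cells (red) and in all cells (grey), with exact 95% counting intervals. Wfdc17 in monocyte-like cells is above 350 CPM in A965 and A964 and below 115 CPM in A963, A962 and A961.

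Between the large hashtags, Wfdc17 was 2.99-fold higher in A965 over all cells (98.3 against 32.8 CPM, interval of the ratio 2.89 to 3.10) and Tgfbi 1.87-fold (66.8 against 35.8 CPM, 1.80 to 1.93). These 2 of the 8 genes were called, while 1.93% of 8025 tested genes were called higher. Within monocyte-like cells the same 2 were called, Wfdc17 at 4.23-fold (4.0 to 4.48) and Tgfbi at 1.59-fold (1.53 to 1.67), beside 2.45% of tested genes called higher and 1.02% lower. Ms4a6c was at 1248 CPM in A965 and 1245 CPM in A963, and the other 5 genes also stayed within 1.5-fold. At clustering resolution 0.5 the log2 ratio of Wfdc17 was 0.58, just short of the call, and that of Trem2 was 0.94, which passed. For Tgfbi the log2 ratio was 0.47 to 0.55, short of the call, under 4 alternatives: another seed, 1000 variable genes, Scrublet calls removed and no filter on cells.

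The monocyte-like cells of the 2 hashtags stood at different points of the Mpo order. Later cells were 40.9% of them in A965 (exact binomial interval 37.7 to 44.2%) and 19.3% in A963 (16.0 to 23.0%), and cluster 7 held 506 of the 902 cells in A965 but 58 of the 507 in A963. The hashtags were therefore also compared at like Mpo. From the highest to the lowest Mpo part, the ratio of A965 to A963 for Wfdc17 was 1.66, 3.29, 3.79 and 3.05, above 1.5-fold in all 4 parts. The background share of genes called higher in these parts was 0.952%, 1.78%, 4.93% and 5.22%.

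Tgfbi was split by the order. Its ratio was 0.953 and 1.07 in the parts with more Mpo, and 1.74 in both of the parts with less, where it was at 393 against 225 CPM and 566 against 325 CPM. In early cells it was at 143 CPM in A965 and 152 CPM in A963, and in later cells at 521 against 276 CPM. Wfdc17 was called higher in A965 on both sides, at 96.4 against 49.3 CPM in early cells (background 0.692%) and 827 against 214 CPM in later cells (background 5.5%). F13a1 was lower in A965 in each of the 4 parts, with ratios between 0.766 and 0.969. None passed 1.5-fold, while 0.852%, 1.81%, 3.9% and 8.04% of tested genes were called lower in the 4 parts.

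Fn1 changed sides. It was at 111 CPM in A965 and 77.7 CPM in A963 over all monocyte-like cells, but at 25.5 against 60.3 CPM within cluster 1, where it was called lower in A965 (0.423-fold, interval 0.375 to 0.477), as were 0.528% of tested genes. In the highest Mpo part it was also called lower, at 17.7 against 32.9 CPM. In the second part it was at 50.7 against 58.4 CPM, in the third at 162 against 106 CPM, higher in A965, and in the lowest at 260 against 271 CPM. Within cluster 1, Wfdc17 was 1.83-fold higher in A965 (96.2 against 52.6 CPM, with 0.554% of tested genes called higher) and Tgfbi was at 151 against 176 CPM.

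The lists of related genes were counted in A965 over A963 within all monocyte-like cells, where 2.45% of all tested genes were called higher and 1.02% lower. These counts are not given at like Mpo. Later cells were 40.9% of monocyte-like cells in A965 and 19.3% in A963, so place in the Mpo order and hashtag cannot be told apart here. In the Ms4a family 5 of 7 were called higher in A965 and none lower, with Ms4a6d at 104 against 32.5 CPM, Ms4a6b at 198 against 120 CPM and Ms4a4c at 239 against 151 CPM. Among classical monocyte genes 7 of 16 were called higher and none lower, with Lyz2 at 12177 against 6434 CPM. Of toll-like receptors and partners 2 of 9 were called higher, of integrins 2 of 7, of clotting genes 2 of 5, of matrix genes 1 of 6 and of WAP proteins 1 of 2. None of 8 Trem genes and none of 8 monocyte regulators passed 1.5-fold, and among the regulators Irf8 was at 491 against 673 CPM.

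**Figure D5:**
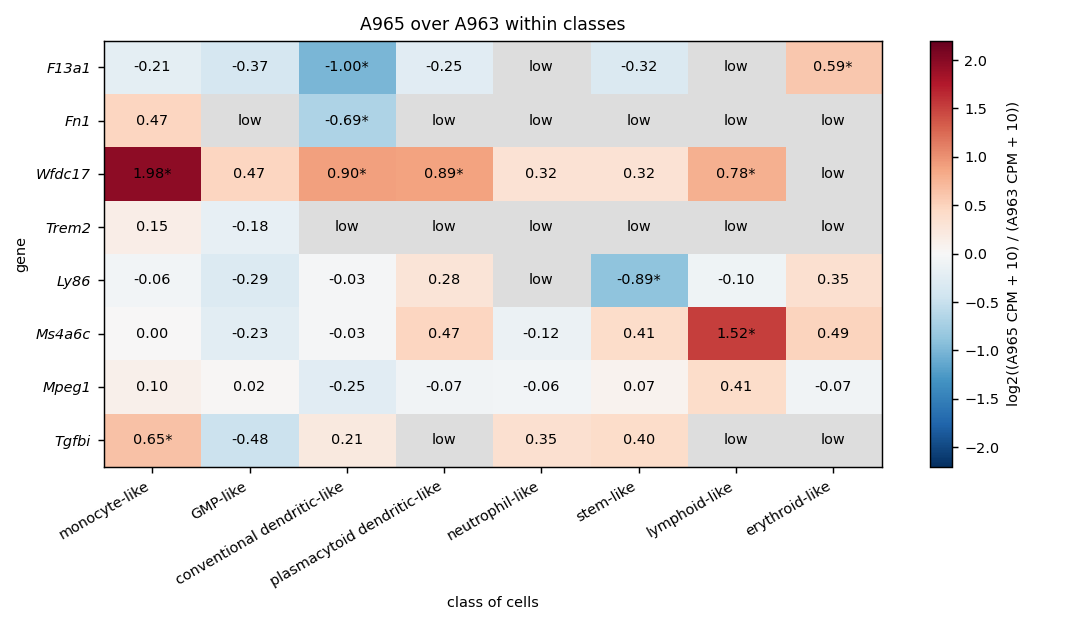
Log2 ratio of A965 to A963 with 10 CPM added, for each gene (rows) in the 8 classes with at least 100 cells in both hashtags (columns), where an asterisk marks a ratio past 1.5-fold and "low" a gene under 10 CPM in both. Wfdc17 is positive in all 7 classes where it reached 10 CPM and passes 1.5-fold in 4 of them.

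The hashtags were compared in the 8 classes with at least 100 cells in both. Outside the monocyte-like class, Wfdc17 was also higher in A965. It was at 149 against 75.1 CPM in conventional dendritic-like cells (1.98-fold, background 1.16%), 53.2 against 24.2 CPM in plasmacytoid dendritic-like cells (2.2-fold, background 0.508%) and 226 against 127 CPM in lymphoid-like cells (1.77-fold, background 1.97%). It did not pass 1.5-fold with 10 CPM added in stem-like cells (112 against 87.9 CPM, background 0.357%), GMP-like cells (16.1 against 8.85 CPM, background 0.85%) or neutrophil-like cells (16.3 against 11.03 CPM, background 1.91%).

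Ms4a6c was 3.25-fold higher in A965 within lymphoid-like cells, at 159 against 49.1 CPM (interval 2.74 to 3.86), and did not pass 1.5-fold in any other of these classes. Ly86 was lower in A965 within stem-like cells, at 16.0 against 38.1 CPM (0.419-fold, with 0.797% of tested genes called lower). In conventional dendritic-like cells F13a1 was at 52.4 against 115 CPM and Fn1 at 8.22 against 19.3 CPM, both called lower in A965, as were 2.0% of tested genes. F13a1 was called higher in A965 within erythroid-like cells at 17.4 against 8.23 CPM, with 0.475% of tested genes called higher. That class should lack the gene. Mpeg1 and Trem2 passed 1.5-fold in none of the 8 classes. The nonclassical monocyte-like class was left out of these calls, with 149 cells in A965 and 41 in A963. There F13a1 was at 55.3 against 149 CPM, Tgfbi at 311 against 155 CPM and Trem2 at 21.98 against 42.0 CPM.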

How the data were processed

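Cells from mouse bone marrow were captured in 1 BD Rhapsody library and amplified by TAS-Seq, a protocol for single-cell cDNA, per the labels' protocols. The deposited table holds whole-number counts per gene and cell that the authors had not normalised. The submitters' processing notes name GRCm38, Seurat 4.2.0 and R 4.2.1 but not what each was used for, and aligner, annotation and counting tool are not given in the sources used here. Nor is it given if repeated reads of a molecule were merged, and entries of 2 were 54.7% as common as entries of 1.

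Of 10731 cells, 190 named as doublets and 6 without a hashtag were set aside, and 7 with under 500 genes or over 20% mitochondrial counts were removed. The remaining cells had 8822 to 140994 counts. No barcode number occurred more than 1 time. Cells were clustered with scanpy 1.11.5 and leidenalg 0.10.2 (2000 variable genes, 30 principal components, 15 neighbours, resolution 1) without the 8 genes, Xist and 4 Y-linked genes. Scrublet marked 223 cells (2.12%), which were kept. Clusters were named from markers of 14 classes. Sums per group were compared by CPM ratios, and the ratio step was tested on simulated data. Named genes were the 8, Mpo, the 3 most like each of the 8, and up to 4 per list with the highest level in monocyte-like cells. Genes named beyond these because their list had few calls were chosen after their values were seen. The members and lists were chosen with earlier results of these data known. There was no replicate, so no test was made. Other clusterings, scalings, added constants and splits were tried.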

Additional observations from a re-analysis of the deposited data

Results flagged for a closer look

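Cells kept out of the comparisons also held counts of these genes. The 190 cells named as doublets held them at a summed 1350 CPM (7668 counts), above the 0.526 CPM that a count of 0 allows there. The 6 cells without a hashtag held them at a summed 1660 CPM (202 counts), above the 24.6 CPM that a count of 0 allows, with 0 counts of Trem2.

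The difference of F13a1 between A965 and A963 had opposite directions in different classes. Its log2 ratio was 0.59 in erythroid-like cells and -1.0 in conventional dendritic-like cells, which are 1.59 apart, and this difference was not tested. Erythroid-like cells should lack the gene, which was at 10.7 CPM there and found in 4.32% of thinned cells, so the higher side is near background.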

How the results depend on the processing

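No paired analysis was possible because the data are 1 library with no replicates. The count of genes called higher in later cells was 4, with Fn1 among them by construction. It was 2 at clustering resolution 0.5, where Tgfbi and Mpeg1 were lost, and 8 when GMP-like cells were ordered together with monocyte-like cells. There Trem2 turned to a log2 ratio of 1.79. It was at 19.9 CPM in the added GMP-like cells and 101 CPM in monocyte-like cells, and the source of the change was not tested. The count called higher in A965 within monocyte-like cells was 2, and it was 1 with seed 1, 1000 variable genes, Scrublet calls removed, no filter on cells, cluster 1 alone or early cells alone, Tgfbi being lost each time. At resolution 0.5 it was 2, with Trem2 in place of Wfdc17, whose log2 ratio was 0.58. In cluster 1 the log2 ratios turned to -0.21 for Tgfbi and -0.98 for Fn1, and in early cells to -0.082 for Tgfbi. Without a filter on low values, more genes enter, and the share of genes called higher was 2.29% in later cells, 0.624% in A965 over all cells and 0.772% in A965 monocyte-like cells. The cluster 1, early, later and cluster 7 comparisons were added after seeing the data. All other alternatives kept each count within 1.5 times. Fn1 and Trem2 were not found in most thinned monocyte-like cells, and before thinning they were found in 50.6 and 62.1% of them. How far depth limits their detection was not tested.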
